A study of Aedes aegypti with 6 samples.

Results

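The 200 brightest genes of pupal testes were examined in a meiotic drive strain and a non-driving strain of Aedes aegypti, the yellow fever mosquito. They were chosen from 12813 genes by their mean log2 intensity over all 6 arrays of the study, after averaging the rows of a gene and setting aside 5 genes, of which 2 would otherwise have ranked among the 200. They make up 1.56% of the genes measured. The groups were testes of the drive strain T37 (3 one-colour arrays) and testes of the non-driving strain RED (3 arrays), each from a separate extraction of testes of males in the early pupal stage, reared at 26°C and 80% humidity in a cycle of 16 h of light and 8 h of dark. No other treatment or allele is given for either strain, and each kind of strain is represented by 1 strain. In free text the RED samples are also counted as T37 replicates, whereas their titles and strain labels give RED, which was followed here.

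In a mosquito testis, germ cells divide in cysts, pass through meiosis and mature into spermatids while somatic cells enclose them, so RNA from the whole organ mixes germ cells of several stages with somatic cells. In meiotic drive a chromosome is passed to an excess of gametes, and the driver known in this mosquito maps beside the locus that makes males. Transcripts at the bright end of an array stand far above background, but they also lie nearest to the upper limit of the scanner. In whole testes, fewer cells of a type and less RNA per cell cannot be told apart. The deposited table names genes by AAEL identifiers only, and the reference table used here held 0 of the 12813, so gene functions are not given and the tissue label could not be checked against markers. Brightness also depends on the probes of a gene, so the order of the genes is an order of brightness and not of transcript abundance.

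One array stood apart. Across all genes, RED replicate 3 was the least like the other RED arrays, with Spearman's rho of 0.885 and 0.896 to RED replicates 1 and 2, against 0.972 between those. The counts of genes that passed the test or whose strains did not overlap are given with and without it. So are the genes with the largest strain differences or spread. Counts by unadjusted p and by the sign or size of the mean difference are given for all 6 arrays only. Median intensities over all transcripts ran from 1836 to 1985 on the 6 arrays.

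The selected genes lay in a narrow band just under the top of the scale. Their mean log2 intensity ran from 15.95 to 14.97, a 1.98-fold range, and these levels are a description, since they chose the genes. The lowest value of any of them on any array was 14.31, an intensity of 20366, and the highest was 15.97, an intensity of 64205. Their median log2 intensity was 15.28, 15.25 and 15.28 on T37 replicates 1, 2 and 3 and 15.32, 15.30 and 15.28 on RED replicates 1, 2 and 3. They held 12.8% to 13.4% of the summed intensity of all genes on the T37 arrays and 13.0% to 13.5% on the RED arrays. These medians and shares overlapped between the strains. The values were processed with RMA, which makes the arrays' distributions alike, so this likeness is in part set by the processing.

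**Figure D1:**
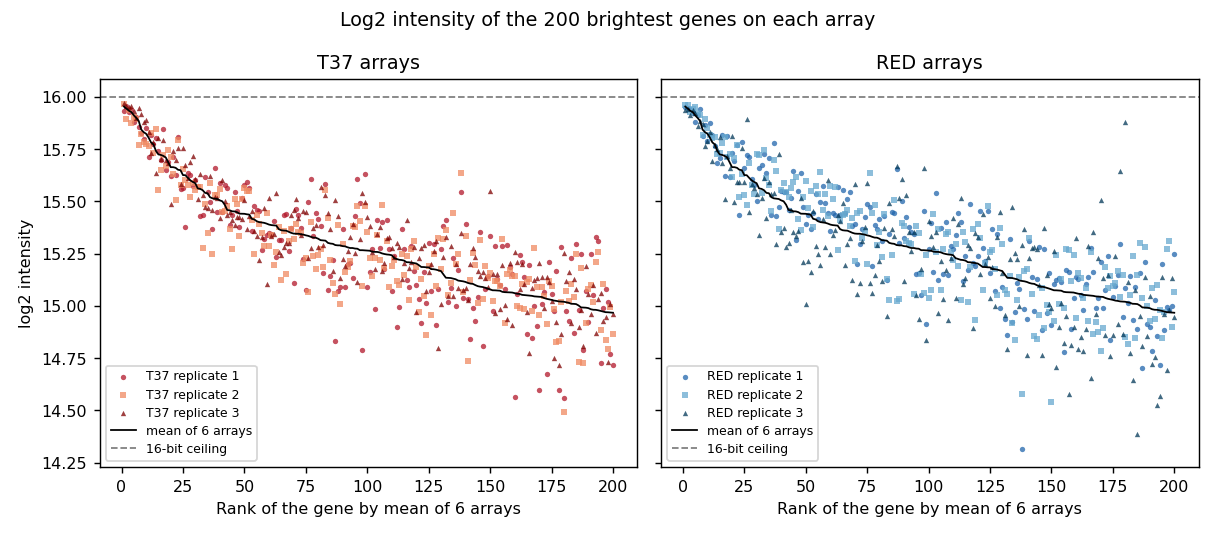
Log2 intensity of the 200 genes (vertical axis) against their rank by the mean of 6 arrays (horizontal axis), for the 3 T37 arrays (left) and the 3 RED arrays (right), with the mean of 6 arrays as a line and the ceiling of a 16-bit scan as a dashed line. Points hug the line at the bright end and spread out toward rank 200, down to 14.31 on RED replicate 1.

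The brightest gene was AAEL008779. Its log2 intensity was 15.93, 15.96 and 15.97 on T37 replicates 1, 2 and 3 and 15.95, 15.96 and 15.94 on RED replicates 1, 2 and 3. It ranked 1 on 4 arrays, T37 replicates 2 and 3 and RED replicates 1 and 2. AAEL014231 ranked 1 on the other two, T37 replicate 1 and RED replicate 3. Its log2 intensity was 15.96, 15.89 and 15.96 on the T37 arrays and 15.95, 15.96 and 15.94 on the RED arrays. The values of the strains overlapped for both genes, and neither gene left the 5 brightest on any array.

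The next 8 genes in level were AAEL009707, AAEL010882, AAEL006642, AAEL003308, AAEL011478, AAEL014185, AAEL006975 and AAEL000432. Their means fell between 15.93 and 15.82. The 10 brightest genes all stayed among the 20 brightest of every one of the 6 arrays, and the lowest rank any of them took was 16, for AAEL006975 on RED replicate 3. None of these 10 separated the strains: their T37 minus RED differences ran from -0.055 to 0.027 on the log2 scale, and the lowest adjusted p by limma was 0.88. If the upper limit was 16.0, the ceiling of a 16-bit scan, means this high left no room for a difference of 0.75. No gene with a smaller difference was called in the reported fit, so under that limit the outcome for these 10 was set by their level. The 10 brightest genes by the T37 mean and the 10 brightest by the RED mean had 9 in common.

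The lower edge of the selection was less distinct. AAEL007113 and AAEL009665, the last genes inside it, averaged 14.97 and 14.97, and AAEL009317 and AAEL007609, just outside, averaged 14.97 and 14.96. The gap between the last gene inside and the next outside was 0.0014 on the log2 scale. AAEL009665 had 14.72, 14.87 and 14.96 on T37 replicates 1, 2 and 3 against 15.25, 15.07 and 14.94 on RED replicates 1, 2 and 3. It thus ranked 341 on T37 replicate 1 and 123 on RED replicate 1. AAEL009317, outside, had ranks between 189 and 253, a narrower range than that of the gene just inside.

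Membership therefore held at the top and blurred at the bottom. Of the 200 genes, 110 were among the 200 brightest of every array, and 190 were among the 400 brightest of every array. By rank, membership of the 200 on every array held for 49 of the brightest 50, 44 of the second 50, 17 of the third 50 and 0 of the last 50. The ranks and the membership come from the same arrays and the same cutoff, so a decline toward the edge is built into these counts. On single arrays, 170, 174 and 174 of the genes were among the 200 brightest on T37 replicates 1, 2 and 3, against 168, 173 and 153 on RED replicates 1, 2 and 3. RED replicate 3 kept the fewest, and without it 120 genes were among the 200 brightest on all of the other arrays. A further 122 genes outside the selection entered the 200 brightest of at least 1 array, and none of them did so on all 6.

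The 2 strains shared most of their brightest genes. The 200 brightest by the T37 mean and the 200 brightest by the RED mean had 163 genes in common, 81.5% of each list. Of the T37 list 180 genes belonged to the selection, and of the RED list 183. Among the 50 brightest of each strain, 38 were in common. The selection averages the strains, so the 180 and 183 are partly fixed by it. The 163 and 38 compare lists made from each strain alone and do not use the selection.

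Rank agreement between single arrays was higher within than across strains at the median, but not for every pair. The median of Spearman's rho over the 200 genes was 0.774 within T37 (3 pairs), 0.784 within RED (3 pairs) and 0.626 across strains (9 pairs). By pair, rho was 0.857 between T37 replicates 1 and 2, 0.697 between replicates 1 and 3 and 0.774 between replicates 2 and 3. Among the RED arrays it was 0.790 between replicates 1 and 2, 0.784 between replicates 1 and 3 and 0.496 between replicates 2 and 3. Across strains it ran from 0.314, between T37 replicate 1 and RED replicate 3, to 0.794, between T37 replicate 1 and RED replicate 2. T37 replicate 1 thus ordered these genes more like RED replicate 2 than like T37 replicate 3. Without RED replicate 3 the lowest rho across strains was 0.543, between T37 replicate 1 and RED replicate 1. All of these are correlations over 200 genes that share arrays, given as a description.

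**Figure D2:**
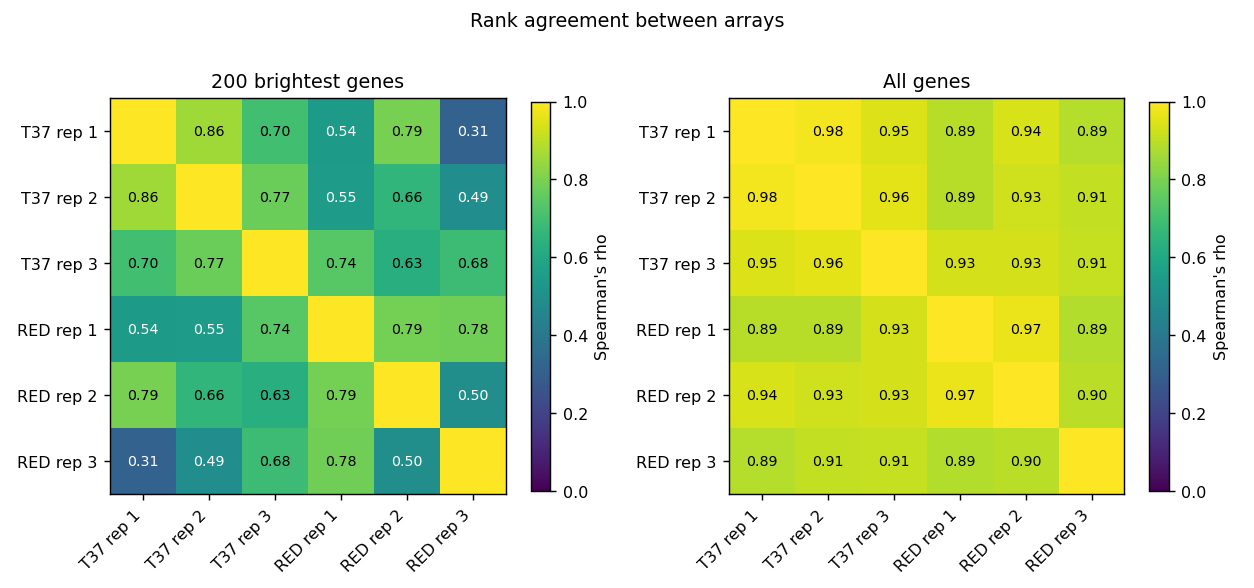
Spearman's rho between each pair of arrays (colour and printed value) over the 200 brightest genes (left) and over all genes (right), with T37 arrays before RED arrays. Over the 200 genes rho runs from 0.314 to 0.857, and over all genes from 0.885 to 0.983.

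Over all 12813 genes the same 15 pairs had rho of 0.885 to 0.983. Selection within 1 log2 unit of level lowers rho by construction, as the 200 genes next in level show. Their means spanned 14.58 to 14.97, and their rho ran from -0.537 to 0.674. A lower rho thus does not mean less precise values here. By median absolute log2 difference between 2 arrays, the 200 genes lay 0.088 to 0.22 apart, against 0.17 to 0.62 for all genes.

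Some arrays deviated from their strain's mean in a way that an array of the other strain shared. Over the 200 genes, the deviations of T37 replicate 1 from the T37 mean correlated with those of RED replicate 2 from the RED mean at r = 0.802 and with those of RED replicate 3 at r = -0.684. For T37 replicate 3 these values were -0.677 and 0.496. T37 replicate 2 had values of -0.228, -0.106 and 0.215 to RED replicates 1, 2 and 3. Over all genes T37 replicate 1 correlated with RED replicates 2 and 3 at 0.421 and -0.076, and T37 replicate 3 at -0.217 and -0.174, so the pattern of the 200 genes held there only in part. The largest values in size over all genes were those with RED replicate 1. They were 0.458 for T37 replicate 3 and -0.433 for T37 replicate 2, against 0.279 and -0.228 over the 200. Deviations within a strain sum to 0, so these values are linked to each other. On the first principal component of the 200 genes, which held 56.0% of the variance, the T37 arrays scored 2.23, 1.19 and -0.11 and the RED arrays -1.30, 0.66 and -2.67, so that the strains overlapped. On the second, with 27.0%, the T37 arrays scored 0.076, 1.16 and 1.07 and the RED arrays -1.19, -1.79 and 0.67, and these overlapped too, since RED replicate 3 scored above T37 replicate 1.

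Replicate spread was small and shrank toward the top. The median SD over 3 arrays was 0.091 in T37 and 0.14 in RED on the log2 scale, against 0.26 in T37 and 0.35 in RED over all genes and 0.12 in T37 and 0.16 in RED over the next 200. RED had the larger SD in 141 of the 200 genes, or 70.5%, close to the 67.3% of all genes. Without replicate 3 of the strain, the medians over 2 arrays were 0.062 in T37 and 0.082 in RED. In the 10 brightest genes the median SD was 0.040 in T37 and 0.030 in RED. By blocks of 50 genes from the top, it was 0.057, 0.094, 0.11 and 0.12 in T37 and 0.075, 0.14, 0.14 and 0.17 in RED.

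The smallest SDs pooled over the strains belonged to AAEL009707 and AAEL008779, at ranks 3 and 1. AAEL009707 had 15.93, 15.94 and 15.95 on the T37 arrays and 15.94, 15.93 and 15.91 on the RED arrays, an SD of 0.011 in T37 and 0.014 in RED. The largest pooled SD, 0.48, belonged to AAEL004149, at rank 180. Its log2 intensity was 14.56, 14.49 and 15.25 on T37 replicates 1, 2 and 3 and 15.08, 14.85 and 15.88 on RED replicates 1, 2 and 3. It was highest on replicate 3 of each strain, where it ranked 116 in T37 and 8 in RED, and it ranked 486 on T37 replicate 2. The strains overlapped, and its difference of -0.50 (SE 0.35) did not pass the test (limma adjusted p = 0.46). Without RED replicate 3 it was -0.20 (limma adjusted p = 0.68).

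On the linear scale the spread turned at the bright end. The median SD in intensity units rose with level among genes below the selection, with 1594 in T37 and 2038 in RED at ranks 801 to 1281, and 2179 in T37 and 3113 in RED in the 200 genes next after the selection. Within the selection it stood at 2796 in T37 and 3899 in RED in the last 50 genes, was highest at 2899 for T37 in the third 50 and at 3994 for RED in the second 50, and came down to 2119 in T37 and 2700 in RED in the brightest 50. In the 10 brightest it was 1715 in T37 and 1249 in RED.

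**Figure D3:**
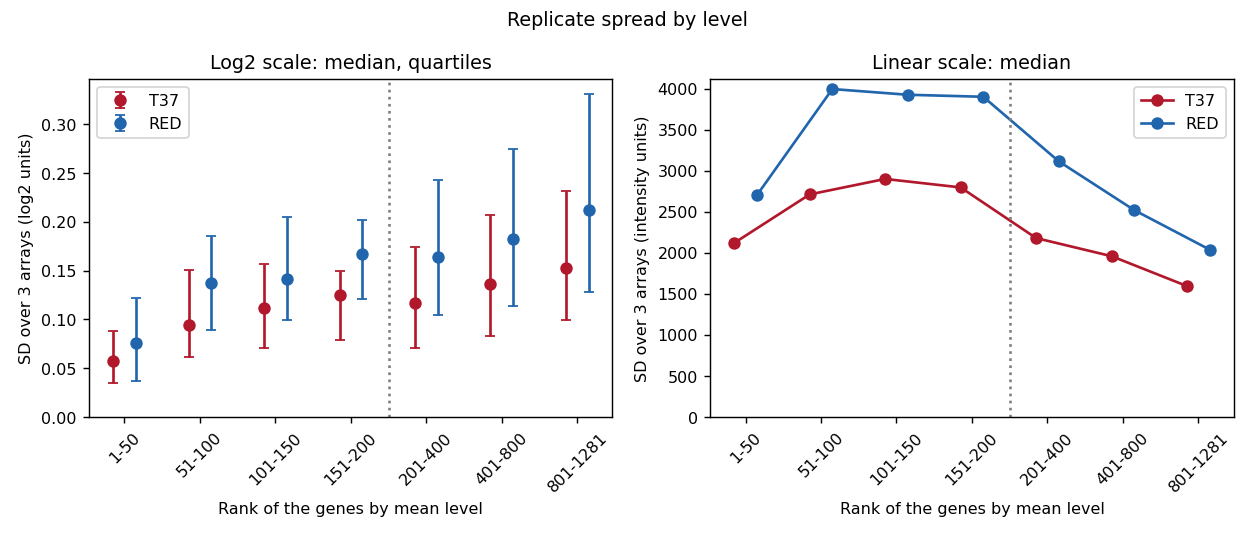
SD over the 3 arrays of T37 and of RED by rank of level, with the median and quartiles over genes on the log2 scale (left) and the median in intensity units (right); the dotted line marks the edge of the 200 genes. On the linear scale the median SD peaks inside the selection, at 2899 in T37 and 3994 in RED, and is lower in the brightest 50, at 2119 in T37 and 2700 in RED.

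The upper limit of the scale was near for the brightest genes. A scan stored in 16 bits cannot exceed 65535, or 16.0 on the log2 scale. The sources used here do not give the bit depth of these scans, but the highest value on each array lay between 96.2% and 98.0% of that limit. No array had equal values at its top, and no 2 of the 200 genes had equal values on an array, so there was no flat ceiling in the summarised values. A value per transcript summarises several probes, and no saturation marks were used here, so single saturated probes could not be seen. An intensity of at least 90% of the limit was reached by 6 genes on every array and by 13 on at least 1 array. At least 75% was reached by 17 genes on every array and by 59 on at least 1, and at least 50% by 113 on every array and by all 200 on at least 1. Whether saturation accounts for the smaller spread at the top was not tested.

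The distance to that limit bounds what a rise could measure. From the RED mean of each gene, the room up to the limit was 0.049 to 1.27 on the log2 scale, with a median of 0.72. Under that assumption it would allow a rise in T37 of 1.03-fold to 2.42-fold and of 1.64-fold at the median. Over the whole table, the smallest difference called in either direction in the reported fit was 0.75, a rise of 1.68-fold. For 109 of the 200 genes the room above RED was smaller than that. No gene outside the selection had so little room, since the count over all genes was also 109. The count depends on the fit. With a prior spread that follows the level, genes of the 200 were called at rises of 0.40 to 0.54, so 0.75 is not the smallest rise that can be called at this level. From a given RED mean the limit does not bound a fall in T37. The choice of the genes by the mean of both strains does bound it under the same assumption. A gene with a much lower T37 mean would have needed a RED mean above the limit to be chosen.

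The comparison of the strains asked how testis expression differs between a strain with the drive and a strain without it. Among the 200 brightest genes, none passed the test (limma, adjusted p under 0.05 over 12813 genes), against 4.53% of all genes. Neither a rise (0 genes, against 2.44% of all genes) nor a fall (0 genes, against 2.09%) in T37 was called. The rule that chose the genes averages the strains equally and does not use their difference directly. Under the assumed limit, though, a high mean of both strains leaves little room for a large difference either way. Part of the contrast with all genes is thus fixed by the choice. At an unadjusted p under 0.05 limma found 10 of the 200 genes, or 5.0%, against 22.7% of all genes. The lowest adjusted p of any of the 200 was 0.13. A difference that misses the threshold is not shown to be absent. None passed in the next 200 genes either, where 15 had an unadjusted p under 0.05.

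The differences themselves were small. The median T37 minus RED difference was -0.0050 on the log2 scale over the 200 genes and -0.0099 over all genes, with 96 genes higher and 104 lower in T37. The median size of the difference was 0.10, or 1.07-fold, against 0.36, or 1.29-fold, over all genes and 0.16, or 1.12-fold, over the next 200. It was 0.055 in the brightest 50 genes, 0.12 in the second 50, 0.14 in the third 50 and 0.14 in the last 50. A difference of at least 1.2-fold was found in 28 genes, or 14.0%, against 61.2% of all genes, and of at least 1.5-fold in 2 genes, or 1.0%, against 29.6%. In 87 of the 200 genes, or 43.5%, the difference exceeded the pooled SD between replicates, against 50.7% of all genes. A high mean under the assumed limit bounds the size of these differences, most tightly in the brightest genes.

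The strains' arrays did not overlap for 39 genes, or 19.5%, against 28.7% of all genes. All T37 arrays were above all RED arrays in 15 of them, 7.5% against 15.4% of all genes, and below in 24, 12.0% against 13.4%. By blocks of 50 from the top there were 7, 12, 12 and 8. Without RED replicate 3, 70 genes did not overlap, or 35.0%, against 49.0% of all genes, with 22 above (11.0% against 23.3%) and 48 below (24.0% against 25.7%). Without RED replicate 2, 82 genes did not overlap, or 41.0%, about the 40.6% of all genes. With fewer arrays, groups separate more easily.

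**Figure D4:**
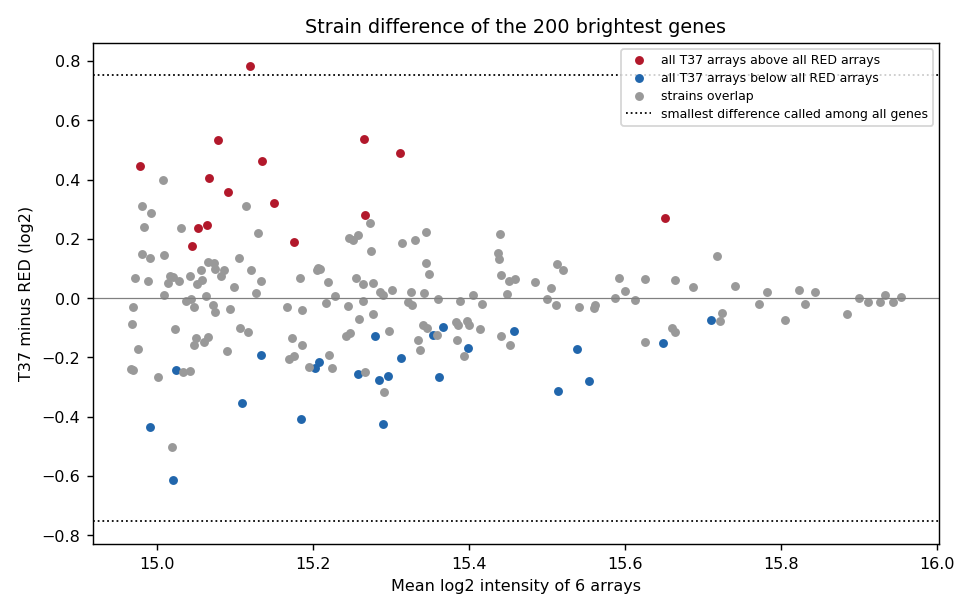
T37 minus RED difference in log2 intensity (vertical axis) against the mean of 6 arrays (horizontal axis) for the 200 genes, coloured by whether the arrays of the strains overlap. Dotted lines mark 0.75, the smallest difference called among all genes in the reported fit, in both directions. The differences narrow toward the bright end, and 1 gene, AAEL000765 at 0.78, lies past a dotted line.

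The largest difference was in AAEL000765, at rank 138. Its log2 intensity was 15.55, 15.64 and 15.35 on T37 replicates 1, 2 and 3, against 14.31, 14.58 and 15.29 on RED replicates 1, 2 and 3. All T37 arrays were above all RED arrays, but RED replicate 3 lay close to T37 replicate 3 and far from the other RED arrays. It averaged 15.51 ± 0.15 (SD, n = 3) on the T37 arrays and 14.73 ± 0.51 (SD, n = 3) on the RED arrays. The T37 mean was thus higher by 0.78 on the log2 scale, or 1.72-fold (SE 0.28, limma adjusted p = 0.18), with a 95% interval of 0.092 to 1.48. It ranked 42 by the T37 mean and 313 by the RED mean, the widest gap of the 200. Without RED replicate 3 the difference was 1.07 and passed (limma adjusted p = 0.035), the only 1 of the 200 to do so, 0.5% against 7.47% of all genes. With replicate 3 of both strains left out it was 1.15 (limma adjusted p = 0.0094), again the only 1 of the 200, against 32.9% of all genes.

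AAEL015201, at rank 99, was next in size among those with all T37 arrays above. It had 15.63, 15.48 and 15.50 on the T37 arrays, against 14.91, 15.24 and 14.83 on the RED arrays. Every T37 array exceeded the highest RED array, replicate 2. The difference was 0.54 (SE 0.18; limma adjusted p = 0.15), or 1.45-fold, and it was 0.46 without RED replicate 3 (limma adjusted p = 0.17).

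AAEL010397, at rank 178, had the largest difference toward RED. It had 14.60, 14.83 and 14.72 on T37 replicates 1, 2 and 3, against 15.29, 15.04 and 15.65 on RED replicates 1, 2 and 3. The T37 values lay closer together than the RED values, whose highest was again replicate 3. The difference was -0.61 (SE 0.21; limma adjusted p = 0.16), and -0.45 without RED replicate 3 (limma adjusted p = 0.17). It ranked 333 by the T37 mean and 87 by the RED mean. AAEL007411, at rank 188, had 14.79, 14.73 and 14.81 on the T37 arrays, against 15.21, 15.28 and 15.14 on the RED arrays. Both strains were tight, with an SD of 0.043 in T37 and 0.074 in RED, and its difference of -0.44 (SE 0.15) also missed the threshold (limma adjusted p = 0.16), as did the -0.47 without RED replicate 3 (limma adjusted p = 0.13).

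**Figure D5:**
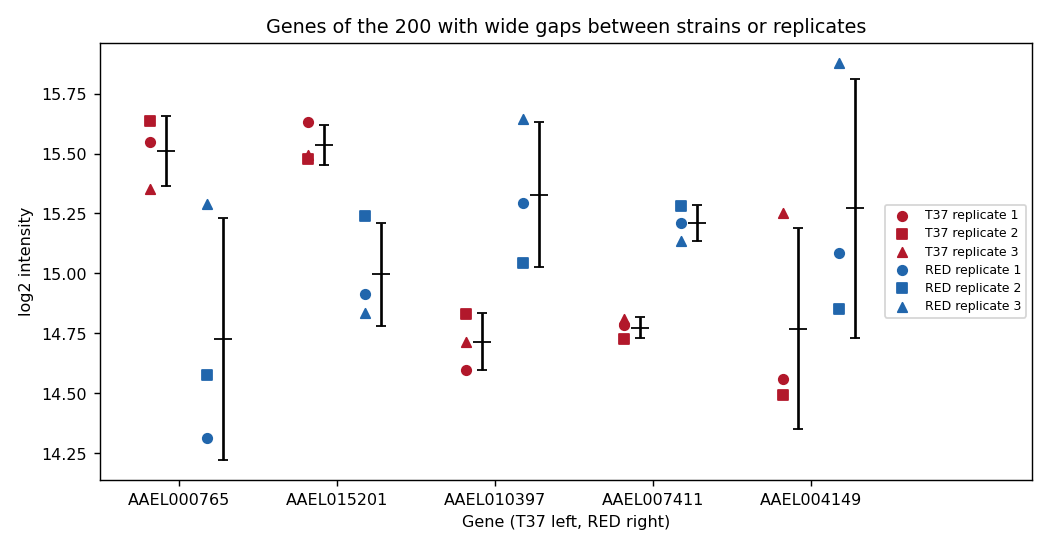
Log2 intensity of 5 genes on each array, T37 to the left and RED to the right of each gene, with marker shapes for replicates and bars for the mean and SD over 3 arrays. For AAEL000765 RED replicate 3, at 15.29, sits near the T37 arrays, and for AAEL004149 replicate 3 is the highest array of both strains.

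The number of calls depended on how the spread was estimated. The fit shrinks each gene's variance toward 1 prior value for all genes, an SD of 0.30, and 195 of the 200 genes had a residual SD below it, against 43.5% of all genes. With a prior that follows the level, whose SD was 0.091 to 0.12 for these genes, limma called 6 of the 200, or 3.0%, against 5.64% of all genes. Of these, 4 were higher and 2 lower in T37, 2.0% and 1.0% against 3.25% and 2.39%. AAEL015201 (limma adjusted p = 0.047) and AAEL007411 (limma adjusted p = 0.026) were among them. With array weights 4 passed, 2.0% against 30.0% of all genes. AAEL000765 and AAEL003972 were higher in T37, 1.0% against 15.5%, and AAEL007411 and AAEL010252 were lower, 1.0% against 14.5%. AAEL003972 and AAEL010252 are named here after their values were seen. Only AAEL003972 and AAEL007411 passed in both of these fits. The array weights were 1.90, 4.71 and 0.40 on T37 replicates 1, 2 and 3 and 0.98, 1.38 and 0.21 on RED replicates 1, 2 and 3. That fit thus leaned on T37 replicate 2 and gave replicate 3 of each strain the least weight.

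Genes with several transcripts were about as frequent as elsewhere. They made up 10 of the 200, or 5.0%, against 3.95% of all genes. The widest gap between the means of a gene's transcripts was 0.58 on the log2 scale, in AAEL008657. Its transcript RA had 14.61, 14.42 and 14.68 on the T37 arrays against 15.06, 15.14 and 15.02 on the RED arrays, and RB had 15.46, 15.05 and 15.38 on the T37 arrays against 15.56, 15.51 and 15.44 on the RED arrays. For RA every T37 array was below every RED array, and for RB the strains overlapped. The gene's averaged difference of -0.35 did not pass (limma adjusted p = 0.28). AAEL013221 and AAEL013275 followed with gaps of 0.46 and 0.41. Their averaged T37 minus RED differences, -0.18 and 0.13, did not pass (limma adjusted p = 0.68 and 0.71).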

How the data were processed

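Total RNA of pupal testes was labelled with Cy3 and hybridised to 6 one-colour NimbleGen arrays. The authors deposited linear intensities of 13471 transcripts, processed with RMA per the submitters' processing notes. RMA makes the arrays' distributions alike and so hides a change of every transcript at once. The sources used here do not give the array design, probe sequences or annotation. Samples were grouped by strain from their titles.

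Log2 was taken with no pseudocount and rows of a gene were averaged. T37 and RED were tested with limma 3.58.1 (R 4.3.3) on 6 arrays without covariates or filters, two-sided, with Benjamini-Hochberg adjustment over 12813 genes and a threshold of 0.05. Differences are T37 minus RED. The number of arrays limits the precision, and a permutation test of 1 gene could not go below p = 0.1. The fit was tested on simulated data. The named genes were the 10 brightest, the 2 on each side of the edge, the 2 largest differences each way among genes whose strains do not overlap (none passed the test), the 2 largest and smallest replicate SDs, the 3 widest gaps in rank between strains and the 3 widest gaps between transcripts. The 200 genes, the rules and the alternatives were chosen with earlier results of these data known. Alternatives were each array left out, replicate 3 of both strains left out, a replicate block, other scalings, other priors, array weights, filters on dim genes, the brightest row of a gene and other ways to choose the 200.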

Additional observations from a re-analysis of the deposited data

How the results depend on the processing

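The count of the 200 genes that passed the test was 0, and it stayed 0 in 13 of 17 alternatives. It was 6 with a prior spread that follows the level, 4 with array weights and 1 with replicate 3 of both strains left out. Leaving out 1 array gave 0 to 1, with 1 only without RED replicate 3. The share of all genes called was 0.117% without T37 replicate 1, 0.078% without T37 replicate 2 and 2.44% without T37 replicate 3. It was 0.648%, 0.289% and 7.47% without RED replicates 1, 2 and 3. Where almost no gene of the whole table is called, a count of 0 says little about the 200. Arrays were not paired by replicate number, since deviations of same-numbered arrays correlated at -0.25, -0.16 and -0.17 over all genes and at -0.14, -0.11 and 0.50 over the 200, and with the replicate block 0 of the 200 genes passed, as did 0 of all genes, with 2 of the 200 and 19.3% of all genes at an unadjusted p under 0.05 by limma. The 39 genes whose strains did not overlap became 34 to 42 under other scalings and the brightest row, 17.0% to 21.0% against 28.8% to 29.5% of all genes. With 1 array left out there were 47 to 82. Without T37 replicates 1, 2 and 3 there were 48 (24.0% against 32.2% of all genes), 47 (23.5% against 31.2%) and 66 (33.0% against 48.1%). Without RED replicates 1, 2 and 3 there were 51 (25.5% against 32.7%), 82 (41.0% against 40.6%) and 70 (35.0% against 49.0%). With replicate 3 of both strains left out there were 100 of 200, against 71.6% of all genes. The share of the 200 was thus below that of all genes in these fits except the one without RED replicate 2. The median difference stayed between -0.030 and 0.013. The median SD in RED was 0.082 to 0.15 with 1 RED array left out, lowest without replicate 3. Choosing the 200 genes otherwise kept 192 to 200 of them, and the strains' lists shared 75.5% to 84.8%. With each array's highest value in place of the 16-bit limit, 21 genes in place of 13 came within 10% of it on at least 1 array, an alternative chosen after seeing the data. Of 340 alternative values for 20 named genes, 6 passed the test where the reported value did not, and 24 changed sign without passing.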

Other observations

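The 5 genes set aside by the rule, AAEL000032, AAEL009496, AAEL000987, AAEL004175 and AAEL003396, ranked 174, 195, 209, 653 and 727 among all genes. None of the 5 passed the test between the strains, and their T37 minus RED differences ran from -0.24 to 0.02 on the log2 scale (limma adjusted p from 0.60 to 0.97). AAEL000032 had 14.88, 14.98 and 15.11 on T37 replicates 1, 2 and 3 and 15.20, 14.84 and 15.18 on RED replicates 1, 2 and 3, with the strains overlapping.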
